A study of Mus musculus with 176 samples.

Results

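Reads of 4 killer cell lectin-like receptor genes, *Klrg1*, *Klrd1*, *Klrk1* and *Klrc1*, were followed across single CD4 T cells sorted after P6 immunization. These 4 genes were taken out of 53546 different gene names in the count table, and 23 other genes of the same receptor group were set beside them. *Klrg1* was chosen by its high ratio of reads between tetramer-positive and tetramer-negative cells, so its levels in these groups are given as a description. *Klrg1* RNA was found in most tetramer-positive cells, whereas reads of *Klrd1*, *Klrk1* and *Klrc1* came from single cells.

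Killer lectin receptors are type II membrane proteins of NK cells and of subsets of T cells that raise or restrain the response of the cell when they bind a ligand on a neighboring cell. KLRG1 is an inhibitory receptor for cadherins and is a known marker of effector CD8 T cells and of a differentiated subset of regulatory T cells (Tregs). CD94, encoded by *Klrd1*, pairs with NKG2A, encoded by *Klrc1*, to form an inhibitory receptor for Qa-1, and NKG2D, encoded by *Klrk1*, is an activating receptor for stress-induced ligands that signals through the adaptors encoded by *Hcst* and *Tyrobp*.

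Female C57BL/6J mice, 7 weeks old at purchase, were immunized with 100 µg of P6, a peptide of apolipoprotein B, first with complete Freund's adjuvant (week 0) and again with the incomplete form (week 2). Draining lymph nodes followed in week 4. CD4 T cells were enriched, held in dasatinib, and stained with the P6:I-Ab tetramer in PE and in APC, and single antigen-experienced cells were sorted into wells. The 32 tetramer-positive (P6+) cells came from 1 mouse, and the tetramer-negative (P6-) cells were antigen-experienced CD4 T cells sorted after the same immunization. By the methods, most of the sample volume was used for P6+ cells, and P6- cells were taken from the small part that remained. Whether all P6- cells came from that mouse alone is not stated in the sources used here. Both groups had thus been immunized, and no sample was labelled as from an unimmunized mouse or as naive T cells.

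The limits of 500000 reads, 2000 genes and 10% mitochondrial reads left 161 cells, the 32 P6+ cells and the P6- cells apart from 15 that failed. The study also set a limit on the mapping rate, which was not used here, so that more P6- cells were kept here than in the study, and each share of P6- cells refers to the cells kept here. The P6+ cells held 956280 to 3332191 reads (median 1731608) and the passing P6- cells 522188 to 3401372 (median 1500457). Detected genes numbered 4396 in the median P6+ and 3432 in the median P6- cell. All 32 P6+ cells carried the prefix 6 in their names, taken here as the plate, and 11 passing P6- cells shared it. For all other P6- cells, plate and tetramer sign cannot be told apart. Of 10 CD4 T cell genes (*Cd3d*, *Cd3e*, *Cd3g*, *Cd4*, *Trac*, *Trbc1*, *Trbc2*, *Cd2*, *Thy1* and *Lck*), P6+ cells held 4 to 9 with 10 or more reads, and all but 2 of the passing P6- cells held at least 1. The cells are not replicates of a condition, so groups of cells were compared without a test. The 95% intervals on reads cover counting error only. Those on shares of cells take cells as independent draws, which cells of 1 mouse or clone are not, and they are given as a description.

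*Klrg1* (ENSMUSG00000030114) lies on the minus strand of chromosome 6 of GRCm38, from 122270596 to 122282882, with 1 annotated transcript of 5 exons. In the P6+ cells its reads fell into 2 ranges that did not overlap. In 19 of the 32 cells (59.4%, exact binomial interval 40.6 to 76.3%) there were 252 to 7691 reads, with a median of 3655. The other 13 cells held 0 to 5 reads. The lowest cells of the upper range were P6+ cell 21 with 252 reads and P6+ cell 24 with 315 reads, and the next, P6+ cell 11, held 1070. The highest were P6+ cells 7, 18 and 26 with 7691, 7069 and 6635 reads. Cells with 10 or more reads of a gene are called positive for it from here on.

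Among the passing P6- cells, 10 were positive for *Klrg1* (7.75% of cells, exact binomial interval 3.78 to 13.8%), and their reads ranged from 120 in a cell of plate 9 to 5492 in P6- cell A, a cell of plate 8, with a median of 1601.5. The remaining cells held at most 8 reads. In counts per 1000000 reads (cpm) of single cells, the positive P6+ cells ranged from 79.98 to 3818, with a median of 2205, and the positive P6- cells from 57.6 to 2719, with a median of 1151. These ranges overlapped, with the highest values and the higher median in P6+ cells. No P6- cell of plate 6 was positive. The 11 cells held 18 *Klrg1* reads in all and at most 4 in a cell, and 0 of 11 allows a share of up to 28.5% (upper end of the exact binomial interval).

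Summed over cells and divided by the summed reads, *Klrg1* stood at 1259 cpm in P6+ cells (exact Poisson interval 1250 to 1268) and at 106.04 cpm in P6- cells (104.6 to 107.5). The ratio was 3.56 on the log2 scale with 1 cpm added to both sides, and 23.9% of the 9029 genes with a mean of 5 cpm were 2-fold or more higher in P6+ cells. *Klrg1* was the 446th of these genes from the top, at percentile 95.1. Against the 11 P6- cells of plate 6, at 1.17 cpm (0.691 to 1.84), the log2 ratio was 9.18, the highest of 7915 genes. In that comparison 49.6% of genes were 2-fold or more higher in P6+ cells and the median gene was at 0.97, so the ratio stands beside a wide general shift. The ratio chose this gene, and nothing is read from its rank. No single P6+ cell set the level: the cell with most reads held 10.3% of the P6+ total, whereas P6- cell A held 25.4% of the P6- total.

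**Figure D1:**
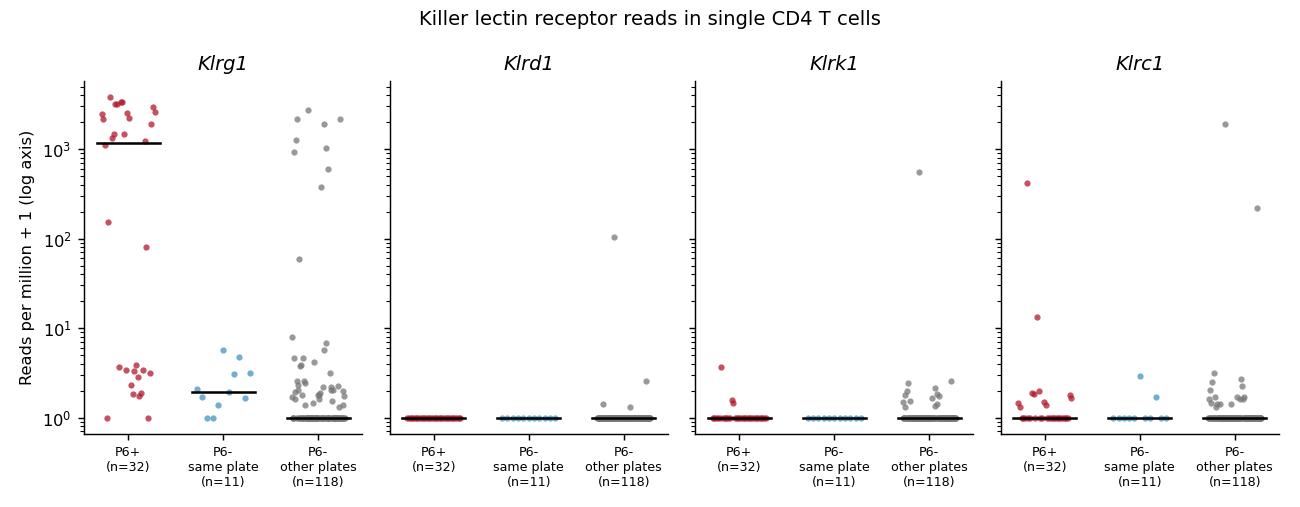
Counts per 1000000 reads (cpm) plus 1, on a log axis, of *Klrg1*, *Klrd1*, *Klrk1* and *Klrc1* in each passing cell, for 32 P6+ cells, 11 P6- cells of the same plate and the P6- cells of other plates. Each point is a cell and the bar is the median. *Klrg1* splits the P6+ cells into 19 cells with 79.98 cpm or more and 13 near 0, and the other 3 genes are above 10 cpm in 0 to 2 cells of each group.

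The positive P6- cells were spread over several plates. Plates 9, 8, 3 and 2 held 3, 2, 2 and 2 of them, plate 7 held 1, and plates 4, 5 and 6 held 0. Taken against the P6- cells of each plate alone, the log2 ratio of *Klrg1* was 2.5998 to 4.02 for the 5 plates with a positive cell and 9.18 to 10.15 for the 3 without. Low counts of 1 to 9 *Klrg1* reads occurred in 11 P6+ cells and in 43 P6- cells, of which 15 were on plate 8 and 9 on plate 6. The highest low count, 8 reads, was on plate 8, where 58 of the 7368 *Klrg1* reads lay in cells with fewer than 10. The source of these low counts was not tested.

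Sequencing depth differed little between *Klrg1*-positive and other cells. Median reads were 1753313 in the 19 positive and 1709902 in the 13 other P6+ cells, and 1513712 and 1500457 in positive and other P6- cells. The Pearson r between log2(cpm + 1) of *Klrg1* and the total reads of the cell was 0.06 over the 32 P6+ cells and -0.01 over the passing P6- cells. Positive P6+ cells held more detected genes, a median of 4618 against 4171 (r = 0.38). The share of mitochondrial reads ran the other way, with r of -0.54 in P6+ and -0.26 in P6- cells, and its part in the *Klrg1* pattern was not tested.

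*Klrd1*, *Klrk1* and *Klrc1* lie together on chromosome 6, from 129591782 to 129678973, a span of 87.2 kb that starts 7.31 Mb from *Klrg1*. No exon of the 4 genes overlaps an exon of another gene in the annotation. *Klrd1* (ENSMUSG00000030165, 129591782 to 129598775), the CD94 chain, had 0 reads in all 32 P6+ cells, where 3 reads would be 0.0506 cpm. In P6- cells all but 3 of its reads (97.4%) were in P6- cell 32 of plate 3, at 102.2 cpm. That cell had 0 reads of the other 3 genes.

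*Klrk1* (ENSMUSG00000030149, 129610323 to 129623864), which encodes NKG2D, had 5 reads in all P6+ cells together and at most 3 in a cell. P6- cell 71 of plate 5 held 963 of the 977 reads in P6- cells. This cell was also the *Trbv13-2*-positive P6- cell closest to the limit, with 14 reads of that segment, and it had 0 reads of *Hcst* and of *Tyrobp*, the adaptor genes of NKG2D.

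*Klrc1* (ENSMUSG00000030167, 129666015 to 129678973), which encodes NKG2A, was positive in 2 P6+ and 2 P6- cells. P6+ cell 3 held 689 reads and P6+ cell 31 held 22. Both were also positive for *Klrg1*, with 5221 and 3942 reads, and both were positive for *Trbv13-2*. P6- cell 130 held 270 *Klrc1* and 2366 *Klrg1* reads, and it was positive for *Foxp3* with 1401 reads. P6- cell 61, with the most *Klrc1* reads of any cell (2712), had 0 reads of *Klrg1*. All 4 cells had 0 reads of *Klrd1*, the gene of the chain with which NKG2A pairs. None of the 4 had 10 or more reads of any of 12 genes of NK, NKT, γδ T or CD8 T cells. *Klrc1* has near-identical neighbors in *Klrc2* and *Klrc3*, for which 1 and 0 reads were counted in P6+ cells, and reads that fit several of them equally are not in these counts.

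The pooled levels of these 3 genes therefore rest on single cells. *Klrc1* stood at 12.1 cpm in P6+ and 14.7 cpm in P6- cells (log2 ratio -0.26), but 95.6% and 90.3% of its reads were in 1 cell of each group. Against the 11 P6- cells of plate 6, which held 2 reads, its log2 ratio had the opposite sign, at 3.54. *Klrk1* stood at 0.0843 and 4.79 cpm, and *Klrd1* at 0 and 0.574 cpm. Both were under the mean of 5 cpm set for ratios. Per kilobase of exon, *Klrg1* had the highest level of the 4 in either group, at 890 cpm per kb in P6+ and 74.99 in P6- cells. *Klrc1* followed at 6.12 and 7.43 cpm per kb, and in P6- cells *Klrk1* (0.667) and *Klrd1* (0.448) came last. For scale, *Foxp3*, the transcription factor that defines Tregs, stood at 60.4 and 38.2 cpm per kb.

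The 23 other killer lectin receptor genes, among them the Ly49 (*Klra*) and NKR-P1 (*Klrb1*) families, were almost without reads. In P6+ and passing P6- cells, 14 of them had 0 reads and 22 had no positive cell. The exception was *Klrb1f*, with 2490 reads in P6- cell 110 of plate 8 and no other positive cell. That cell was positive for 8 of the 10 CD4 T cell genes.

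Genes that pass on or restrain receptor signals were compared next. Of 8 such genes, 7 could be compared, and 0 passed a 2-fold ratio in either direction, against 23.9% of all genes higher and 29.3% lower. Their median log2 ratio was -0.05, beside -0.04 for all genes. Against the P6- cells of plate 6, 2 of the 7 were 2-fold higher (*Hcst* and *Vav1*) and 2 lower (*Ptpn6* and *Pik3r1*), where 49.6% of all genes were higher and 23.7% lower. *Hcst*, the DAP10 adaptor, was positive in 17 P6+ and 35 P6- cells, at 207.7 and 123.3 cpm. *Tyrobp*, the DAP12 adaptor, had 0 reads in all cells. *Inpp5d* (SHIP-1), *Ptpn6* (SHP-1) and *Ptpn11* (SHP-2), phosphatases recruited by inhibitory receptors, were at 90.4, 67.8 and 132.8 cpm in P6+ and at 79.1, 135.5 and 138.9 cpm in P6- cells. *Ptpn6*, lower in P6+ cells, was thus just under the 2-fold limit.

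Of 14 genes of ligands, 10 were in the count table. *H2-T23*, which encodes Qa-1, was positive in 23 of 32 P6+ and in 53 P6- cells, at 571 and 286 cpm (log2 ratio 0.995, just under the 2-fold limit). *Ulbp1*, which encodes the NKG2D ligand MULT1, was positive in 5 P6+ cells, with a median of 466 and at most 1124 reads, and in no P6- cell, all of which together held 6 reads. Of these 5 cells, 4 were positive for *Klrg1*. *H60b*, another NKG2D ligand, was positive in 1 P6+ and 4 P6- cells, and *Clec2d*, a ligand of NKR-P1 receptors, in 2 and 3. The cadherins that KLRG1 binds were near 0, with *Cdh1* at 0 reads in P6+ cells and 0.0196 cpm in P6- cells. Of *Cdh1*, *Cdh2* and *Cdh4*, only *Cdh2* had a positive cell, 1 P6- cell that was not *Klrg1*-positive. Over the 4 ligand genes that could be compared, 1 was 2-fold higher and 2 were 2-fold lower in P6+ cells, beside 23.9% and 29.3% of all genes. Against plate 6 alone 2 could be compared, and both were higher, beside 49.6% of all genes.

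The P6+ and P6- cells were next divided by reads of *Foxp3*. In P6+ cells, 11 cells held 22 to 4166 *Foxp3* reads and 21 held at most 4. In P6- cells, 19 held 37 to 7737 and 110 held at most 2. The limit of 10 reads thus fell in a gap in both groups. Among P6+ cells, 8 of 11 *Foxp3*-positive cells were *Klrg1*-positive (72.7%, exact binomial interval 39.03 to 93.98%), as were 11 of 21 *Foxp3*-negative cells (52.4%, 29.8 to 74.3%). The pooled levels were 1601 and 1108 cpm, a log2 ratio of 0.53, beside 27.8% of 7894 genes 2-fold higher and 37.8% lower in *Foxp3*-positive cells.

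In P6- cells, the share of *Klrg1*-positive cells was 6 of 19 with *Foxp3* (31.6%, interval 12.6 to 56.6%) and 4 of 110 without it (3.64%, interval 0.9995 to 9.05%). The levels were 364 and 62.3 cpm (log2 ratio 2.53), with 24.1% of 8577 genes 2-fold higher and 37.2% lower in the *Foxp3*-positive cells, but P6- cell A alone held 51.1% of the reads of the *Foxp3*-positive group. With cells of 1 or more *Foxp3* reads set against the rest, the levels were 155 and 80.6 cpm, and the log2 ratio of 0.93 was under the 2-fold limit. Within *Foxp3*-positive cells the log2 ratio of P6+ to P6- cells was 2.13 (32.4% of genes 2-fold higher and 36.2% lower), and within *Foxp3*-negative cells it was 4.13 (25.5% higher and 33.4% lower). Across single cells, r between *Klrg1* and *Foxp3* was 0.15 in P6+ and 0.29 in P6- cells.

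*Trbv13-2* (chromosome 6, 41121396 to 41121832) is the β chain V segment of the largest P6+ clone, and P6+ cells positive for it may share an ancestor, so they are not independent of each other. Its reads also left a gap at the limit in P6+ cells, with 48 to 780 in 16 cells and at most 1 in the other 16. In P6- cells the values closest to the limit were 14 and 9 reads. *Klrg1* was positive in 14 of 16 *Trbv13-2*-positive P6+ cells (87.5%, interval 61.7 to 98.4%) and in 5 of the 16 others (31.2%, interval 11.02 to 58.7%). The 2 *Trbv13-2*-positive cells without *Klrg1* held 0 and 1 reads of it, and the 5 *Klrg1*-positive cells without *Trbv13-2* held 2327 to 7069.

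In pooled levels, *Klrg1* stood at 1751 cpm in *Trbv13-2*-positive and 749 cpm in *Trbv13-2*-negative P6+ cells, a log2 ratio of 1.22, beside 34.4% of 7792 genes 2-fold higher and 33% lower. With cells of 1 or more *Trbv13-2* reads set against the rest the log2 ratio was 0.96, under the 2-fold limit. Among *Klrg1*-positive cells alone the median level was not higher with *Trbv13-2*, with medians of 2057 cpm in 14 cells and 2506 cpm in 5. In P6- cells, 4 of 26 *Trbv13-2*-positive cells (15.4%) and 6 of the others (5.83%) held *Klrg1*, with intervals of 4.36 to 34.9% and 2.17 to 12.2%. The pooled levels, 106.5 and 105.9 cpm, gave a log2 ratio of 0.01, beside 22.8% of 8578 genes 2-fold higher and 36.5% lower. Its sign turned, to -0.96, with cells of 1 or more *Trbv13-2* reads set against the rest (65.4 and 128.01 cpm), and to -0.10 without the cell with most reads in each group (67.6 and 72.8 cpm). Against P6- cells of the same kind, P6+ cells had log2 ratios of 4.03 among *Trbv13-2*-positive cells (34.7% of genes 2-fold higher and 33.4% lower) and of 2.81 among the others (24.1% higher and 38.4% lower).

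When both genes were used, 7 of 7 P6+ cells with *Trbv13-2* and without *Foxp3* were *Klrg1*-positive, with 315 to 6358 reads. Of the 9 cells with both, 7 were positive, and of the 14 cells with neither, 4. Only 2 P6+ cells had *Foxp3* without *Trbv13-2*, and 1 of them, P6+ cell 23, held 3585 *Klrg1* reads. Among P6- cells, *Klrg1* was positive in 2 of 4 cells with both genes, in 4 of 15 with *Foxp3* alone, in 2 of 22 with *Trbv13-2* alone and in 2 of 88 with neither. Numbers per class were small, and the exact binomial interval for 7 of 7 runs from 59.04 to 100%. *Klrc1*, in turn, was positive in 2 of 16 *Trbv13-2*-positive and 0 of 16 other P6+ cells.

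**Figure D2:**
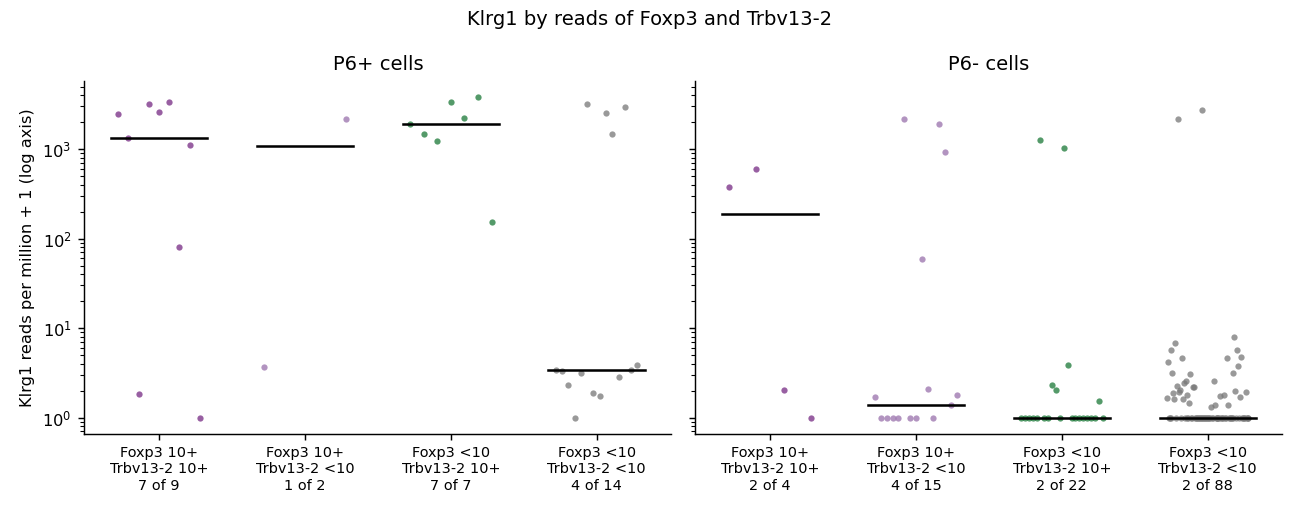
*Klrg1* in cpm plus 1 (log axis) in P6+ cells (left) and P6- cells (right), divided by whether *Foxp3* and *Trbv13-2* had 10 or more reads. Each point is a cell, the bar is the median, and the numbers under each class give *Klrg1*-positive cells of all cells. In P6+ cells 14 of 16 cells with *Trbv13-2* are positive against 5 of 16 without, and in P6- cells 6 of 19 with *Foxp3* against 4 of 110 without.

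Genes with the pattern closest to that of *Klrg1* were ranked by Pearson r of log2(cpm + 1) over the 32 P6+ cells, among 3166 genes positive in at least 6 of them. The first was *S100a6* (r = 0.83), a small calcium-binding protein, and it was positive in all 19 *Klrg1*-positive cells and in 2 others. *Cmtm7* (0.82), *Crip1* (0.74) and *Gzmb* (0.74) followed. *Gzmb*, which encodes the cytotoxic protease granzyme B, was positive in 14 P6+ cells and each of these was positive for *Klrg1*. The next were *Itgb7* (0.72), an integrin chain of gut-homing T cells, *Ccr2* (0.72), a chemokine receptor of which 15 of 16 positive cells held *Klrg1*, and *Sdf4* (0.71). *Cst3* (0.70), *Cyba* (0.69) and *Lgals1* (0.69), the gene of galectin-1, completed the 10. For all genes the median r was 0.07. These cells share a plate and a mouse, and the r values describe them only.

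The same 10 genes had r above 0 in the P6- cells too, from 0.19 to 0.67 with a median of 0.33, where the median of 6573 genes was 0.01. In P6- cells *Gzmb* came first (r = 0.67), positive in 8 cells of which 6 held *Klrg1*. *Sdc4* (0.65), a cell surface proteoglycan, *Cmtm7* (0.60), *Ccr2* (0.60) and *N4bp1* (0.59) came next, and 3 genes were among the first 10 in both groups of cells. *N4bp1* was at r = 0.03 in P6+ cells. With 10 positive P6- cells, each of these values rests on few cells. P6- cell 130 carried the most *Gzmb* reads, 13778, together with 2366 reads of *Klrg1*.

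**Figure D3:**
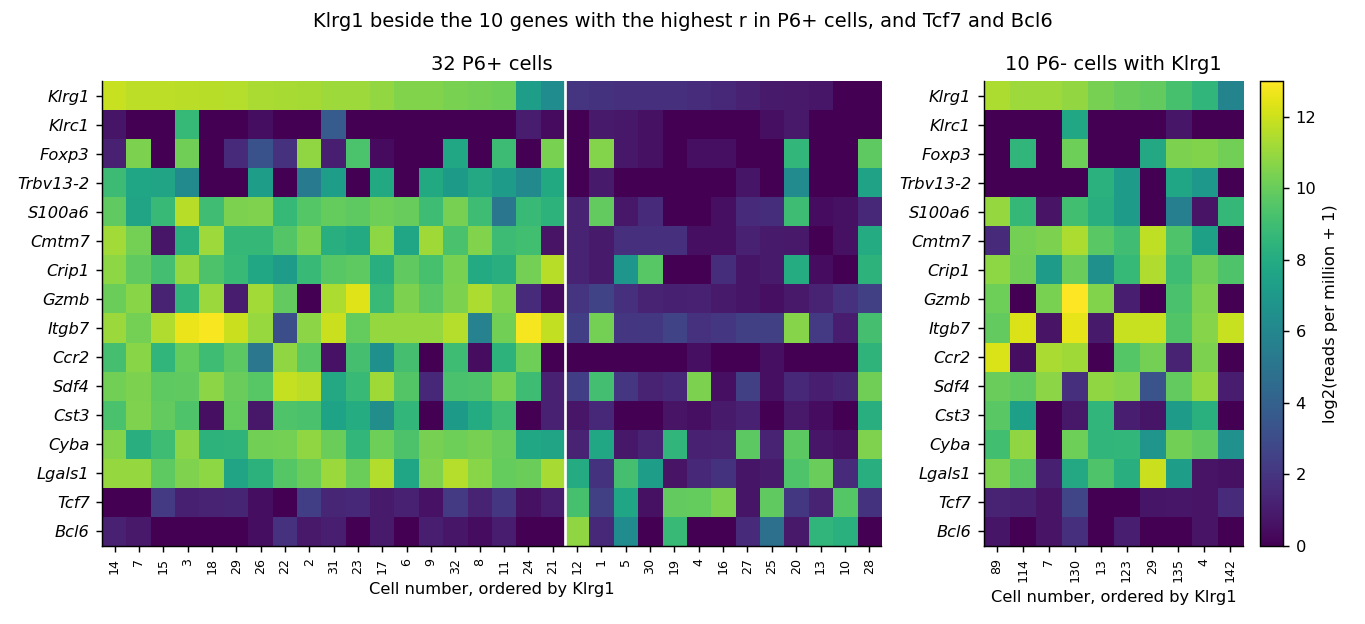
Level of *Klrg1*, *Klrc1*, *Foxp3*, *Trbv13-2*, the 10 genes closest to *Klrg1* in P6+ cells, and *Tcf7* and *Bcl6*, as log2(cpm + 1) by color, in 32 P6+ cells (left; the white line divides the 19 *Klrg1*-positive cells from the other 13) and in the 10 *Klrg1*-positive P6- cells (right). Columns are cells in order of *Klrg1*. *Gzmb* is high only left of the line, in 14 cells, and *Tcf7* only right of it, in 7.

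The opposite pattern was shown in P6+ cells by *Tcf7*, the gene of TCF-1, a transcription factor of naive and memory T cells, and by *Bcl6*, the factor of follicular helper T cells. *Tcf7* (r = -0.62) was positive in 0 of 19 *Klrg1*-positive and 7 of 13 other P6+ cells, and in 0 of 10 *Klrg1*-positive and 45 other P6- cells. *Bcl6* (r = -0.52) was positive in 0 of 19 and 6 of 13 P6+ cells, and in 0 of 10 and 12 other P6- cells. In P6- cells r was -0.16 for *Tcf7* and -0.04 for *Bcl6* (places 6444 and 4514 of 6573 from the highest), and Spearman rho was 0.07 and 0.18. Of the other genes in a list of 9 memory and naive factors, *Bach2* and *Id3*, positive in 4 and 2 P6+ cells, were also found without *Klrg1* only, but in P6- cells 1 of the 25 *Bach2*-positive and 1 of the 7 *Id3*-positive cells held *Klrg1*. *Il7r*, the IL-7 receptor, ran the other way and was positive in 10 of 19 and 3 of 13 P6+ cells. So did *Ccr7*, positive in 10 of 19 and 4 of 13, and *Foxo1*, positive in 7 of 19 and 3 of 13. The r values of *Il7r*, *Ccr7* and *Foxo1* were 0.18, 0.19 and 0.14 in P6+ cells and 0.25, -0.20 and 0.03 in P6- cells. The list's median r was -0.19 in P6+ and -0.04 in P6- cells, and 3 of its 7 genes that could be ranked in P6+ cells were above 0.

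A list of 24 effector and regulatory T cell genes lay above the rest in both groups of cells. In P6+ cells 17 of the 18 ranked genes had r above 0, with a median of 0.35, against 61.9% of all genes. In P6- cells 20 of 20 did, with a median of 0.32, against 53% of all genes. *Tnfrsf18* (GITR) was positive in 19 of 19 *Klrg1*-positive and 6 of 13 other P6+ cells. *Il1rl1*, which encodes the IL-33 receptor ST2, was positive in 6 and 0 of these cells, and in 6 of 10 positive and 3 other P6- cells. *Ikzf2* (Helios) was positive in 16 of 19 and 5 of 13 P6+ cells and in 9 of 10 positive and 15 other P6- cells. *Itgae* (CD103) was positive in 10 and 1 of the P6+ and in 5 and 5 of the P6- cells. Other genes of the list followed *Klrg1* little or not at all in P6+ cells. *Cxcr3*, a chemokine receptor of type 1 T cells, was at r = -0.02, *Ctla4* at 0.02, *Tigit* at 0.10 and *Foxp3* at 0.15, where the median of all genes was 0.07. By Spearman rho *Cxcr3* was at 0.17, *Ctla4* at -0.03 and *Tigit* at -0.05. Both lists were drawn up with results of these cells known.

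**Figure D4:**
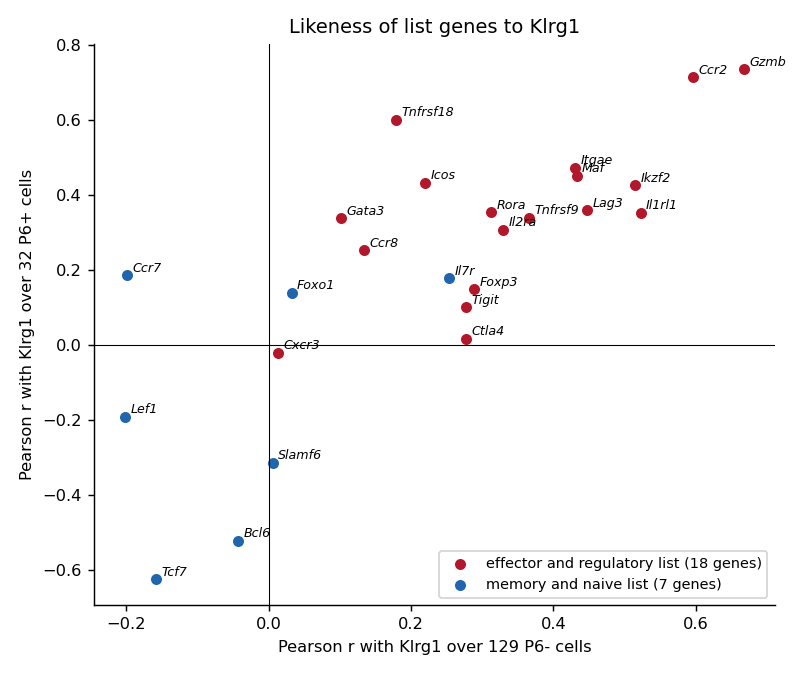
Pearson r of log2(cpm + 1) with *Klrg1* for genes of the effector and regulatory list (18 genes) and of the memory and naive list (7 genes), over the passing P6- cells (x axis) and 32 P6+ cells (y axis). Each point is a gene ranked in both groups. *Gzmb* and *Ccr2* are highest in both, and *Tcf7* and *Bcl6* are lowest in P6+ cells, at -0.62 and -0.52.

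Between P6+ and P6- cells, 12 of the 24 effector and regulatory genes were 2-fold higher and 1 was lower in P6+ cells, with a median log2 ratio of 1.10, beside 23.9% of all genes higher and 29.3% lower. Against the P6- cells of plate 6, 20 of 23 were higher and 0 lower (median 2.69), beside 49.6% and 23.7% of all genes. *Gzmb* stood at 802 and 133.97 cpm (2.57), *Lag3* at 464 and 80.6 cpm (2.51) and *Itgae* at 547 and 119.5 cpm (2.19). Of the 9 memory and naive factors 0 were 2-fold higher and 4 lower, with a median of -0.91, and against plate 6 alone 2 were higher and 3 lower, with a median of -0.54. *Lef1*, a partner of TCF-1, was at 11.7 and 270 cpm (-4.41). Transcription factors and receptors known from KLRG1-positive effector CD8 T cells were mostly low. *Zeb2* was positive in 2 P6+ cells, 1 of them *Klrg1*-positive, *Tbx21* and *Prdm1* in 3 each, all *Klrg1*-positive, *S1pr5* in 0 cells of both groups and *Cx3cr1* in 0 P6+ and 3 P6- cells. In P6- cells *Prdm1* was positive in 7 cells, 2 of them with *Klrg1*, and *Tbx21* in 3, none with *Klrg1*. Of the 6 genes of this list of 7 that could be compared, 1 was 2-fold higher and 1 lower in P6+ cells, and against plate 6 alone 3 of 5 were higher and 0 lower, beside the same shares of all genes. Only *Id2*, positive in 12 of 19 *Klrg1*-positive and 3 of 13 other P6+ cells, and *Bhlhe40*, in 6 and 4, were found in more cells.

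Markers of other cells were checked because killer lectin receptors are typical of NK and CD8 T cells. Of 12 genes of NK, NKT, γδ T and CD8 T cells, *Ncr1*, *Klrb1c*, *Klre1*, *Itga2*, *Cd8a* and *Cd8b1* had 0 reads in P6+ cells, and 3 P6+ cells were positive for 1 gene each. Their summed level ranged from 0 to 1937 cpm in P6+ cells and from 0 to 2734 cpm in P6- cells, with medians of 0, and 6 P6- cells were positive for 1 gene each. *Gzma*, for granzyme A, was positive in P6+ cells 8 and 13, with 5678 and 1765 reads, and the latter held 2 reads of *Klrg1*. *Prf1*, for perforin, was positive in no P6+ cell. Of 5 B cell genes, *Cd79a* and *Ms4a1* had 0 reads in P6+ cells, whereas *Cd79b* or *Igkc* was positive in 4 P6+ cells, all of which held *Klrg1*, and in 1 P6- cell, which held it too. The summed B cell level ranged from 0 to 580 cpm in P6+ and from 0 to 121.9 cpm in P6- cells. The part of these B cell reads in the *Klrg1* pattern was not tested. No cell was positive for any of 5 myeloid genes. Without the 7 P6+ and 7 P6- cells positive for any gene of these lists, *Klrg1* was positive in 14 of 25 P6+ (56%) and 8 P6- cells (6.56%), and the log2 ratio was 3.78.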

How the data were processed

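Single cells were sequenced by Smart-Seq2, which amplifies full-length cDNA without molecular identifiers. Per the paper's methods and the submitters' processing notes, reads were checked with FastQC 0.11.7, mapped to GRCm38 with STAR 2.6.0a and sorted with SAMtools 0.1.19. The authors deposited a table of counts, the reads on each gene in every sorted cell, neither normalized nor filtered, with the tetramer sign of each cell. Whether strand was used in counting is not given in the sources used here. The 53647 rows held 53546 names, and 81 repeated names were averaged. Positions and exon lengths came from GENCODE M21.

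Counts were added up over the cells in each group and scaled to 1000000 reads (cpm). To form log2 ratios, 1 cpm was added to each side, among genes with a mean of 5 cpm. Sums carry exact Poisson and shares Clopper-Pearson intervals at 95%. A gene was positive in a cell at 10 reads. No doublet caller was run, as single cells were sorted per well. Python 3.11.15, pandas 2.3.3, scipy 1.17.1, and R 4.3.3 with edgeR 4.0.16 and DESeq2 1.42.0 (scaling factors only) were used. The ratio and likeness steps were tested on simulated pooled counts and simulated normal values. Neither held reads concentrated in single cells, as these data do, so only the arithmetic was checked.

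The 4 genes, the lists and the limits were chosen with earlier results of these data known. Genes were named if they were among the 4, in the lists, *Foxp3* or *Trbv13-2*, or among the 10 (P6+) or 5 (P6-) highest in r with *Klrg1* among genes positive in 6 cells, receptor segments left out. Alternatives changed the pseudocount, quality limits, pooling, scaling, read limits, plates and likeness measure. Some results are not reported here.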

Additional observations from a re-analysis of the deposited data

How the results depend on the processing

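The pooled log2 ratio of *Klrg1* between P6+ and P6- cells, 3.56, was 3.45 with 10 cpm added, 3.63 with all deposited cells, 3.86 without the cell with most reads in each group, 3.61 as a mean over cells and 3.52 with TMM factors. Other choices of P6- cells moved it further, the same plate to 9.18 and, chosen after seeing the data, each plate alone, to 2.5998, 4.02, 10.15, 10.12, 9.18, 2.62, 2.79 and 3.07 for plates 2 to 9. It was 3.78 without cells holding other markers, also chosen after seeing the data. The *Foxp3* ratio in P6+ cells, 0.53, became 0.78 at 1 *Foxp3* read, 0.27 at 50 reads, 0.44 without the top cells and 0.36 as a mean over cells. In P6- cells, 2.53 became 0.93, 2.602, 2.26 and 2.25 in the same order, and 2.37 with 10 cpm added. The *Trbv13-2* ratio in P6+ cells, 1.22, became 0.96 at 1 read, 1.08 at 50 reads and 1.56 without the top cells. In P6- cells, 0.01 became -0.96 at 1 read, 0.24 at 50 reads, -0.10 without the top cells and 0.38 as a mean over cells, so its sign is not set by these data. At 1 read, 93.8% of P6+ and 41.1% of P6- cells held *Klrg1*, as did 9 of the 11 same-plate P6- cells, of which 0% held 10 reads. Without a filter on the mean, 10.4% of genes were 2-fold higher and 16% lower in P6+ cells. The *Klrk1* ratio between *Trbv13-2*-positive and other P6- cells, which rests on 1 cell, turned to -2.71 at 50 reads and to -0.022 without the cell with most reads in each group. The alternatives gave 147 values, among them shares of cells and of genes, which have no sign. By limits set around each main value, 71 stayed the same, 74 moved and 2, both of *Klrk1*, reversed. Of 37 *Klrg1* ratios, 31 moved. For log2 ratios these limits covered counting error only. The sign of a log2 ratio changed in 6 values, 4 named above and 2 of *Klrc1*. The *Klrc1* ratio of -0.26 between P6+ and P6- cells became 3.54 against the same plate. The *Foxp3* ratio of *Klrc1* in P6- cells, -0.69, became 0.10 without the top cells. Of the 10 genes closest to *Klrg1*, 7 were among the first 10 by Spearman rho and 9 without the cell with most *Klrg1* reads. Comparisons in which both groups held fewer than 10 reads of a gene gave no value.

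No paired analysis was possible because the cell names carry no replicate numbers shared between the groups, and no test was made. The 15 cells that failed the quality limits held at most 4 *Klrg1* reads. All P6+ cells came from 1 mouse and 1 plate, and only 11 passing P6- cells shared that plate. Amplified reads are not independent molecules, and the counts give no measure of transcripts missed in a cell.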
